A study of Mus musculus with 14 samples.

Results

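The AP-1 transcription factor family was followed through PLX4032 treatment of a transplanted mouse melanoma. Its members were taken by symbol from the deposited expression table, ignoring case: the FOS family genes Fos, Fosb, Fosl1 and Fosl2, the JUN family genes Jun, Junb and Jund, and the related genes Atf3 and Batf. All 9 were among the 18481 genes listed, and all 9 passed the filter on low values that left 15841 genes tested. The tumours grew from SMM102, a mouse melanoma cell line, placed subcutaneously in C57BL/6J mice, all female and 6 to 8 weeks old. PLX4032 is vemurafenib, an inhibitor of the BRAF kinase, and was given at 50 mg/kg on 5 days per week by intraperitoneal injection once tumours had reached 150 to 300 mm3. The treated groups are PLX4032 day 3 (n = 2), PLX4032 day 6 (n = 2), PLX4032 day 18 (n = 2) and PLX4032 day 27 (n = 4), and the controls are control day 3 (n = 2) and control day 6 (n = 2), 14 tumours in all. The controls are called untreated in the sample labels and vehicle-treated in the design text. No control was taken after day 6, so at days 18 and 27 time and treatment cannot be told apart. The 4 tumours of day 27 are the left and right tumours of 2 mice, and the table does not say which column is which mouse. The p-values that include them are therefore too small, and the intervals too narrow. All groups share 1 estimate of the spread in the fit used below, so these 4 tumours also enter the p-values of the other days. All groups share 1 cell line and host strain, and 1 animal number stands in the labels of both a PLX4032 day 3 tumour and a control day 6 tumour.

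AP-1 is a dimer of basic leucine zipper proteins that binds short DNA elements in promoters and enhancers. JUN proteins pair with each other or with FOS proteins, whereas FOS proteins need a partner. Several of the genes are immediate early genes, transcribed within minutes of growth factor, cytokine or stress signals, and Fosl1 is in addition an effector of sustained RAF, MEK and ERK signalling, the pathway that a BRAF inhibitor targets in BRAF-mutant melanoma. Batf lacks the transactivation domain of FOS proteins and acts with JUN proteins in lymphocytes and dendritic cells.

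Levels are given in the authors' signal, a scale that the table calls TPM and that is corrected for transcript length. Each column sums to between 879385 and 1084401, and 5 of 14 sum to more than 1000000, so these are not plain TPM, and the step behind the difference is not given in the sources. Changes are on the log2(signal + 1) scale, which understates changes of low genes, and were tested with limma across all 15841 genes with Benjamini-Hochberg adjustment and a threshold of 0.05. The libraries were made from whole tumours, in which fewer cells of a type and less RNA per cell cannot be told apart. Summed markers of other cells differed between the groups. Of the 8 T cell markers, all listed, the sum was 148.6 to 253.2 at PLX4032 day 3, 76.7 to 239.7 at day 6, 43.2 to 102.4 at day 18 and 20.5 to 27.9 at day 27, against 18.1 to 32.8 in the controls. The 6 macrophage markers, all listed, summed to 3941 to 4765, 1695 to 2123, 1224 to 2052 and 597.6 to 1087 on those days, against 386.8 to 1426 in the controls. The 4 neutrophil markers summed to 100.2 to 161.4, 38.0 to 58.5, 70.3 to 107.2 and 7.27 to 23.1, against 4.02 to 36.0 in the controls. On day 6 only Csf3r was above every control (18.9 to 36.9, against 2.3 to 12.4). S100a8, S100a9 and Cxcr2 lay inside their control ranges that day. The 4 fibroblast markers summed to 1379 to 1804, 832.4 to 1121, 1596 to 1821 and 564.1 to 753.0, against 735.1 to 977.5 in the controls. Most of these sums came from Col1a1 and Dcn. Pdgfra, of the same list, was under every control (135.4 to 263.6) on days 3 (86.1 to 115.6), 6 (77.45 to 93.4) and 18 (92.7 to 97.3). The 4 endothelial markers summed to 90.9 to 136.9, 56.2 to 62.4, 66.9 to 69.6 and 55.4 to 98.7, against 29.4 to 65.2 in the controls. The 4 adipocyte markers summed to 2319 to 2450 at day 18, and in no other tumour to more than 105.6. The 4 skeletal muscle markers summed to 488.5 to 601.9 at day 3, 205.6 to 315.0 at day 6, 25.2 and 1284 in the 2 day 18 tumours and 5.43 to 16.7 at day 27, against 21.5 to 197.1 in the controls. The 4 markers of cycling cells summed to 158.7 to 166.5 at day 3, against 499.9 to 667.0 in the controls. Of 6 pigment cell markers only 3 were listed, summing to 3.29 to 11.8 in all tumours, and Tyr, Mlana and Dct were not, so the melanoma label was not backed by these genes. In no group was a listed marker at 0 in every tumour. The part of these cells in the changes below was not tested.

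Fos, Atf3 and Batf were the members that rose on both day 3 and day 6, and their promoter windows are shown because all 3 hold the same short element. The genes were picked by their calls and the windows by the match, so the match is not a test of shared control. The day 6 calls depended on the tumours used, as given below. The windows are the bases before the gene's start in RefSeq on GRCm38.p6, 250 for Fos (chr12:85473640-85473889, plus strand) and Atf3 (chr1:191183334-191183583, minus strand) and the first 199 of 250 for Batf (chr12:85686470-85686668, plus strand), where the last 51 are annotated as exon in GENCODE and were left out. The capitals mark TGACGT, the core of the cAMP response element that CREB and ATF proteins bind, on either strand.
Fos: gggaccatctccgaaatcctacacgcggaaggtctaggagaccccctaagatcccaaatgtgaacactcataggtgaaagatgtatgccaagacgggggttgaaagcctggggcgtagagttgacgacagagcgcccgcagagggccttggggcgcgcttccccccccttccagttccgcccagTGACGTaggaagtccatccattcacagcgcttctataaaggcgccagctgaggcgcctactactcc
Atf3: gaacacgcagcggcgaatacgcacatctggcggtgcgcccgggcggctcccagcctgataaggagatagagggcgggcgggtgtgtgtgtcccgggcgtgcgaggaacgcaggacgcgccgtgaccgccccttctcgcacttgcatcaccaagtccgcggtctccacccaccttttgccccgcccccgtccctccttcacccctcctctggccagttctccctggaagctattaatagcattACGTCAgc
Batf: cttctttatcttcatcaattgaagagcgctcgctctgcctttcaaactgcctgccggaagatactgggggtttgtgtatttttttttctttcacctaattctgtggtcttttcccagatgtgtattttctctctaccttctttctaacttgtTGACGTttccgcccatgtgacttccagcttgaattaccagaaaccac
Counted back from the start, the element lies at -66 to -61 in Fos and at -98 to -93 in Batf, both in the reading direction of the gene, and at -8 to -3 in Atf3, where it is on the opposite strand and so reads ACGTCA. The Atf3 start used here lies inside the gene's GENCODE span (chr1:191170296-191218039, minus strand). The same 6 letters stand in 6.47% of 32851 such windows. Of the 8 members with a window in the table used, 3 hold the core. Not all of these windows adjoin the GENCODE start. The Jund window ends at chr8:70697738, before the gene's start at 70698949, and the Fosl2 window begins in annotated exon. None holds the full palindrome TGACGTCA, present in 1.55% of windows and of which the core is a part, and none holds the classical AP-1 element TGACTCA, or TGAGTCA on the other strand, present in 4.46%. These matches describe letters in a window and no binding. Fos (chr12:85473890-85477273, plus strand, GENCODE M21) and Batf (chr12:85686669-85709087, plus strand) are separated by 209395 bases of the same chromosome.

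On day 3 the family split, with Fos, Atf3, Batf, Jund and Junb higher and Fosl1 and Jun lower than in the controls. That is 5 members up and 2 down of 9, where 45.8% of all tested genes passed the test, 24.9% higher and 20.8% lower. The share of members called, 7 of 9, stands over a background in which many genes moved. The median change of the 9 members was 0.97, against 0.02 over all tested genes.

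Fos, the founding FOS family gene and a standard reporter of acute stimulation, stood at 37.7 and 70.7 in the 2 PLX4032 day 3 tumours, against 5.00 and 3.64 in control day 3 tumours and 8.91 and 2.97 in control day 6 tumours. Both treated values lay above every control. The mean of 54.2 ± 23.4 (SD, n = 2) was 10.6 times the control mean of 5.13 ± 2.66 (SD, n = 4), a log2 change of 3.19 (SE 0.40, limma adjusted p = 0.00022). On day 6 the level was 25.6 and 24.9, again above all controls, with a log2 change of 2.19 (SE 0.40, limma adjusted p = 0.034). On day 18 the 2 tumours stood at 150.0 and 68.2, the highest and the third highest Fos values of the series, and the log2 change was 4.15 (SE 0.40, limma adjusted p = 0.00016). On day 27 the 4 tumours held 3.14, 5.07, 4.44 and 4.77, inside the control range, with a log2 change of -0.12 (95% interval -0.83 to 0.59, limma adjusted p = 0.88). Fos was high on 3 treated days and in the control range on the last.

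Fosb (chr7:19302696-19310051, minus strand), a FOS paralog that the same stimuli induce, was uneven between the replicates. Its level was 3.71 in one PLX4032 day 3 tumour and 68.6 in the other, against 4.66, 9.99, 4.40 and 6.16 in the controls. The first treated tumour was under every control and the second above every control. The log2 change of 1.37 (SE 0.81, limma adjusted p = 0.19) did not pass. It was -0.57 without PLX4032 day 3 tumour 2 and 3.31 without tumour 1 (limma adjusted p = 0.0014). On day 18 both tumours, at 44.5 and 21.5, were above all controls, but the log2 change of 2.19 (SE 0.81, limma adjusted p = 0.11) missed the threshold. Days 6 (6.95 and 2.56) and 27 (4.01 to 4.66) overlapped the controls.

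Fosl1, which encodes FRA-1, moved the other way to Fos. It stood at 20.8 and 37.5 in PLX4032 day 3 tumours, against 95.9 and 169 in control day 3 and 102 and 132 in control day 6 tumours. Every treated value was under every control. The mean of 29.2 ± 11.8 (SD, n = 2) compares with 125 ± 33.5 (SD, n = 4) in the controls, where it was 4.27 times higher, and the log2 change was -2.08 (SE 0.27, limma adjusted p = 0.0003). On day 6 the 2 tumours, at 76.2 and 81.9, still lay under all controls, but the log2 change of -0.62 (95% interval -1.22 to -0.01) had a limma adjusted p of 0.21. On day 18 (76.2 and 105) and day 27 (86.4, 95.7, 114 and 128) the values overlapped the controls, with log2 changes of -0.44 (limma adjusted p = 0.31) and -0.21 (limma adjusted p = 0.65). Fosl1 (chr19:5447547-5455946, plus strand) shares 1163 of its 2033 annotated exon bases with Ccdc85b on the opposite strand, and whether counting used strand is not given. Ccdc85b averaged 143 at PLX4032 day 3 and 241 in the controls, a log2 change of -0.75 (limma adjusted p = 0.0097), so the Fosl1 level is uncertain to the extent that reads of this pair were not separated.

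Fosl2 (chr5:32135801-32157842, plus strand), which encodes FRA-2, showed no called change on any day. It held 53.0 and 70.0 on PLX4032 day 3, against 41.4 to 62.8 in the controls, and the log2 change was 0.26 (95% interval -0.18 to 0.70, limma adjusted p = 0.32). On days 6, 18 and 27 it ranged from 39.3 to 56.9, and the log2 changes were -0.29, -0.01 and -0.06. Its replicates spread over much of the control range.

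**Figure D1:**
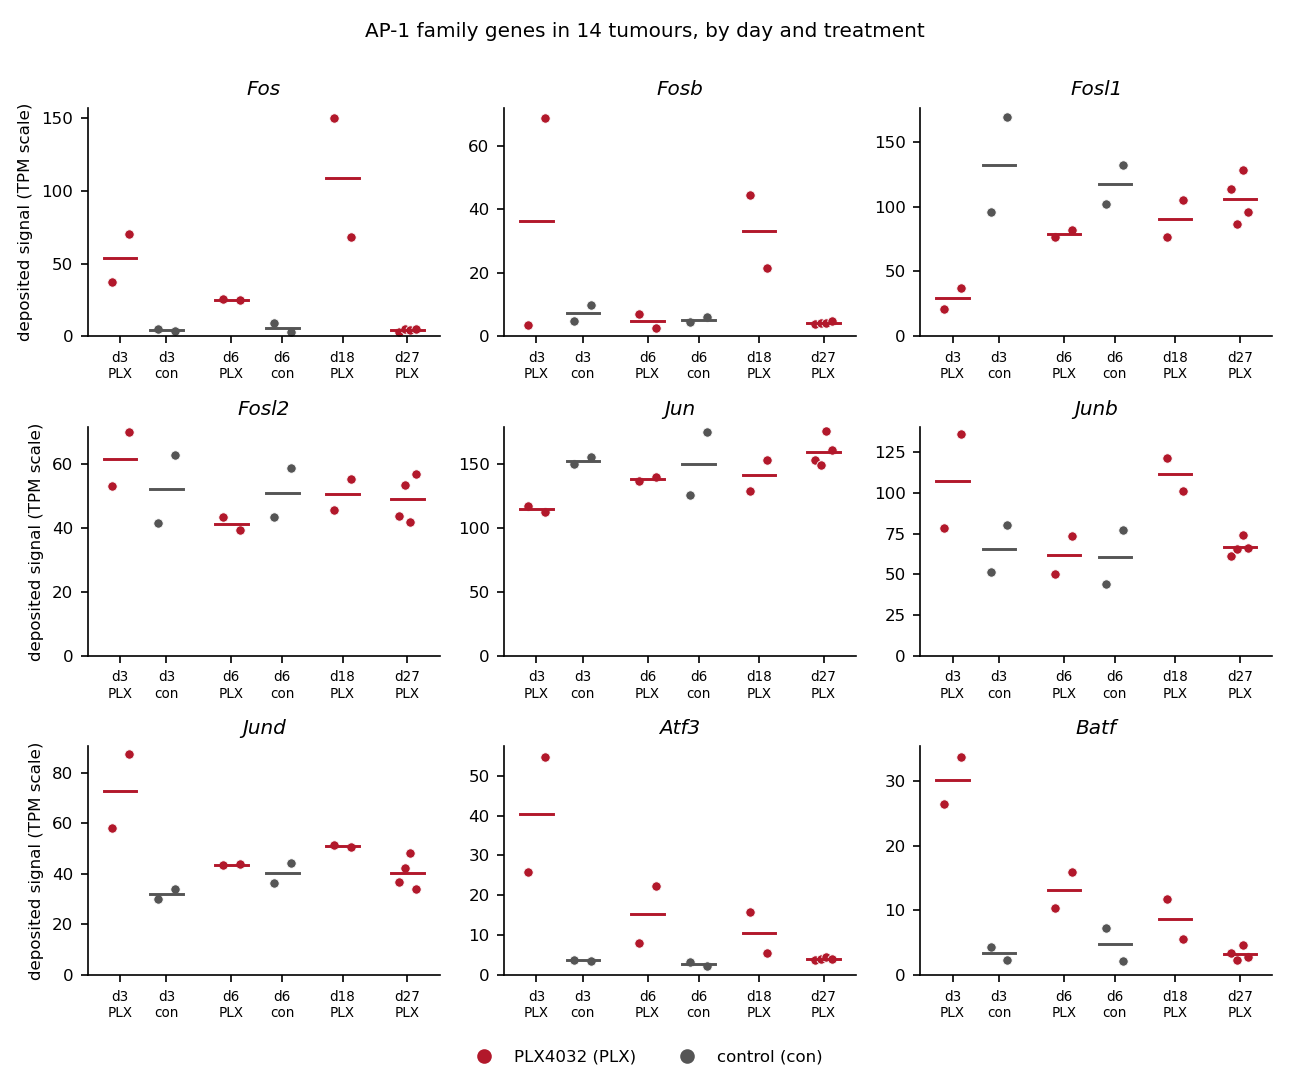
Authors' signal of each of the 9 AP-1 genes in each tumour, on a linear axis starting at 0, with PLX4032 tumours beside control tumours at days 3 and 6 and alone at days 18 and 27. Points are tumours and bars are group means. At days 3 and 6 Fos, Atf3 and Batf stand above all controls, and Fosl1 stands below them.

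Fosl1 made up 15.2% and 18.1% of the sum of Fos, Fosb, Fosl1 and Fosl2 in PLX4032 day 3 tumours, against 64.2% to 68.8% in the controls. Its share was 50.1% and 55.1% on day 6, 24.1% and 42.0% on day 18, and 58.0% to 71.8% on day 27. The treated shares on days 3, 6 and 18 were all under the lowest control. The differences from the controls were -49.5, -13.5 and -33.1 percentage points (two-sided exact permutation p = 0.133 each, the smallest that 2 against 4 tumours allow, adjusted p = 0.178 over 4 comparisons), so this design cannot pass the threshold. The day 27 difference was -1.64 points (exact permutation p = 0.657, where 0.0286 was the smallest possible). That smallest value counts the 4 day 27 tumours as independent. They come from 2 mice, and with mice as units the comparison would again be 2 against 4. Fos took up 28.6% to 32.7% of the sum on day 3, 16.8% on day 6, 27.3% to 47.4% on day 18 and 1.91% to 3.40% on day 27, against 1.48% to 5.62% in the controls. The sum itself differed less: it was 115 and 247 at PLX4032 day 3, and 147 to 245 in the controls. On day 18 it was 249.9 and 316, above every control.

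**Figure D2:**
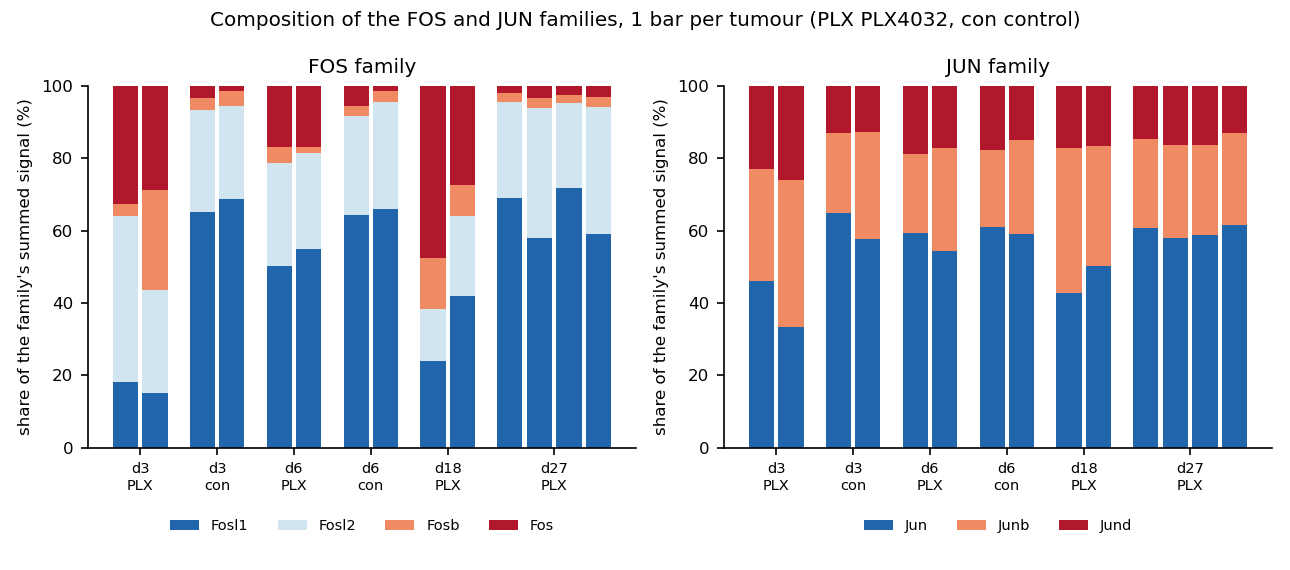
Share of each gene in the summed signal of the FOS family (Fos, Fosb, Fosl1, Fosl2) and of the JUN family (Jun, Junb, Jund), in percent, 1 bar per tumour, PLX4032 left of control at each day. The Fosl1 share is 15.2% to 18.1% at PLX4032 day 3, against 64.2% to 68.8% in the controls.

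Jun was the most abundant of the 3 JUN genes in every tumour but 1, and its changes were small. It held 117 and 113 in PLX4032 day 3 tumours, against 149.8 and 156 in control day 3 and 126 and 175 in control day 6 tumours. Both treated values were under the lowest control. The log2 change was -0.39 (SE 0.12, limma adjusted p = 0.027), and the call was lost when either PLX4032 day 3 tumour, control day 3 tumour 2 or control day 6 tumour 2 was left out (highest limma adjusted p = 0.14). On days 6, 18 and 27 the values ran from 129 to 176 and overlapped the controls, with log2 changes of -0.12, -0.10 and 0.08. The antisense gene Junos, which shares 232 of the 3189 exon bases of Jun (chr4:95049034-95052222, minus strand), averaged 10.4 at PLX4032 day 3 and 19.5 in the controls, a log2 change of -0.80 (limma adjusted p = 0.022).

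Junb, a weaker activator than JUN that often opposes it in cell division, held 78.5 and 136 at PLX4032 day 3, against 51.1, 80.1, 43.9 and 77.0 in the controls. The lower treated tumour overlapped the controls. The log2 change of 0.75 (SE 0.28, limma adjusted p = 0.046) passed narrowly, and the call was lost under 7 of 11 other settings and in 9 of 14 fits that left out 1 tumour. At day 18 both tumours, at 122 and 101, were above all controls, with a log2 change of 0.85 (SE 0.28, limma adjusted p = 0.080). Days 6 (50.0 and 73.4) and 27 (61.2 to 74.1) overlapped the controls. Junb (chr8:84974484-84978718, minus strand) shares 173 of 2301 exon bases with Prdx2, whose change at day 3 was -0.26 (limma adjusted p = 0.14).

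Jund, the JUN gene least dependent on acute stimulation, held 58.2 and 87.5 at PLX4032 day 3, against 30.2, 34.1, 36.3 and 44.4 in the controls. Both treated tumours were above every control, and the log2 change was 0.97 (SE 0.17, limma adjusted p = 0.0012). It stood at 43.5 and 43.8 on day 6, inside the control range, and at 51.4 and 50.8 on day 18, above it, with a log2 change of 0.50 (SE 0.17, limma adjusted p = 0.092). On day 27 it ranged from 34.2 to 48.4. The Jund gene (chr8:70698949-70700616, plus strand) shares 877 of 1668 exon bases with the predicted gene Gm11175, which is not in the table, so this level carries the same uncertainty as that of Fosl1. Jun made up 33.5% and 46.2% of the summed JUN family signal at PLX4032 day 3, against 57.7% to 64.8% in the controls, and 58.1% to 61.6% at day 27.

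Atf3, a stress-induced bZIP factor, had the largest fold of the 9 members on day 3 as a ratio of means. It held 26.0 and 54.7 in PLX4032 day 3 tumours, against 3.74, 3.60, 3.30 and 2.35 in the controls. The treated mean of 40.3 ± 20.3 (SD, n = 2) was 12.4 times the control mean of 3.25 ± 0.628 (SD, n = 4), a log2 change of 3.20 (SE 0.43, limma adjusted p = 0.00032). On day 6 the 2 tumours differed, at 8.14 and 22.3, and on day 18 at 15.9 and 5.48. Both pairs were above all controls. The log2 change was 1.79 (SE 0.43, limma adjusted p = 0.039) on day 6 and 1.31 (SE 0.43, limma adjusted p = 0.081) on day 18. On day 27 the 4 values ran from 3.74 to 4.49, at or just over the highest control of 3.74, with a log2 change of 0.27 (95% interval -0.50 to 1.04, limma adjusted p = 0.72).

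Batf held 26.4 and 33.8 at PLX4032 day 3, against 4.39, 2.36, 7.32 and 2.22 in the controls. Both treated tumours were above every control, with a mean 7.38 times that of the controls and a log2 change of 2.72 (SE 0.40, limma adjusted p = 0.00053). It stood at 10.4 and 16.0 on day 6 (log2 change 1.57, SE 0.40, limma adjusted p = 0.047) and at 11.8 and 5.65 on day 18 (0.98, SE 0.40, limma adjusted p = 0.14), where the lower tumour overlapped the controls. On day 27 it ranged from 2.29 to 4.69. The T cell marker sum was 148.6 and 253.2 on day 3, 76.7 and 239.7 on day 6 and 102.4 and 43.2 on day 18, in the same order of tumours as the Batf values. The higher tumour of each of these pairs was the same for Batf, Atf3 and the T cell, macrophage and neutrophil sums. The dendritic cell sum had the opposite order on day 3 (61.43 and 52.36) and day 18 (23.67 and 29.15), and the same order on day 6 (44.29 and 88.39). For the B cell sum the order was opposite on day 3 (16.32 and 13.71) and day 6 (9.47 and 5.52), and the same on day 18 (8.72 and 3.76). Within day 27 the orders differed: tumour 2 had the lowest Batf (2.29) and the highest T cell sum (27.9). Whether the changes of Batf or Atf3 lay in those cells was not tested.

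**Figure D3:**
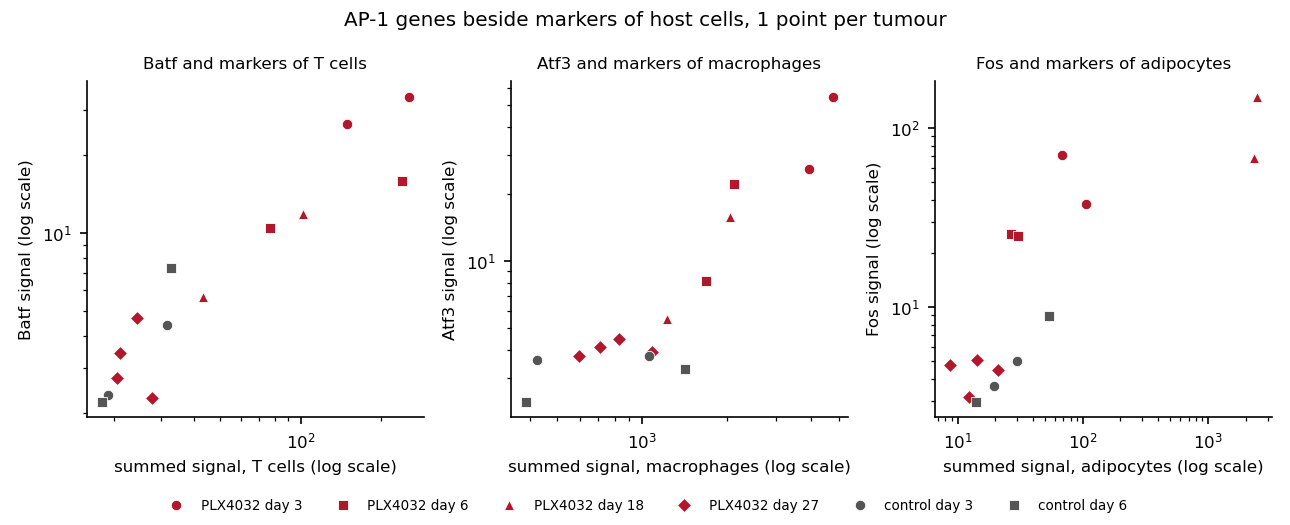
Signal of Batf against summed T cell markers, of Atf3 against summed macrophage markers and of Fos against summed adipocyte markers, 1 point per tumour, all axes on a log scale, with a symbol for each group. In the T cell panel PLX4032 day 27 tumours have sums of 20.5 to 27.9 and the controls of 18.1 to 32.8. In the Fos panel the PLX4032 day 18 tumours stand apart at adipocyte sums of 2319 and 2450.

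On day 6 the counts were 3 members up and 0 down of 9, with 5.92% of all tested genes called, 4.49% higher and 1.43% lower. The members' median change was -0.01, against 0.01 over all tested genes. These 3 calls of Fos, Atf3 and Batf had adjusted p-values close to the threshold. None was kept when control day 3 tumour 2, control day 6 tumour 2, PLX4032 day 6 tumour 2 or any 1 of the 4 day 27 tumours was left out, although in those fits all 3 kept their direction. On day 18 Fos was the 1 member called, with 7.92% of all tested genes called, 5.42% higher and 2.5% lower, and the members' median change was 0.85, against 0.07 over all tested genes. Leaving out either PLX4032 day 3 tumour added Fosb, and leaving out control day 6 tumour 1 added Batf. The day 18 tumours also carried the adipocyte signal given above, and its part was not tested.

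On day 27 limma called 0 of the 9 members, beside 6.67% of all tested genes, 3.58% higher and 3.09% lower. At an unadjusted p under 0.05 the count was 0 of 9 members, beside 3422 of the 15841 tested genes. With only 9 members, 0 called does not set the family apart from the 6.67%, and such a difference was not tested. The 9 changes from the controls ran from -0.42 for Fosb to 0.27 for Atf3. The intervals were widest for Fosb (-1.88 to 1.04) and narrowest for Jun (-0.14 to 0.31). A change of 1 log2 unit lay outside the interval for Jun and inside it for Fosb. These intervals count the 4 tumours of 2 mice as independent and are too narrow. Set against PLX4032 day 3, day 27 tumours had 2 members higher and 4 lower of 9, in a comparison in which 52.0% of all tested genes were called, 24.6% higher and 27.4% lower. Fos was 3.31 log2 units lower (SE 0.40, limma adjusted p = 0.00011), Atf3 2.94 lower (SE 0.43, limma adjusted p = 0.00031), Batf 2.88 lower (SE 0.40, limma adjusted p = 0.00025) and Jund 0.82 lower (SE 0.17, limma adjusted p = 0.0023). Fosl1 was 1.87 higher (SE 0.27, limma adjusted p = 0.00032) and Jun 0.47 higher (SE 0.12, limma adjusted p = 0.0090). Fosb (-1.79, limma adjusted p = 0.087), Junb (-0.63, limma adjusted p = 0.080) and Fosl2 (-0.32, limma adjusted p = 0.20) were not called. These values share the day 3 tumours with the comparison above.

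Between the control groups, day 6 against day 3, limma called 0 of 9 members and 0.0% of all tested genes, with 886 genes at an unadjusted p under 0.05 and none of them a member. The members' changes ran from -0.34 for Fosb to 0.32 for Jund.

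**Figure D4:**
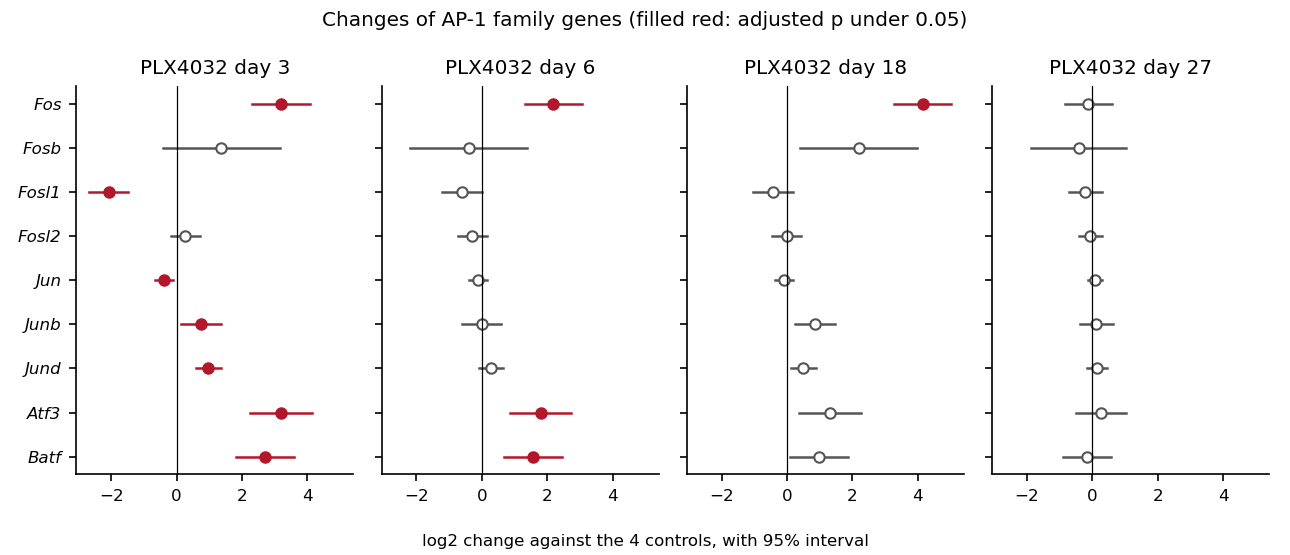
Log2 change of each AP-1 gene from the controls at each treated day, with 95% intervals from limma. Filled red points passed an adjusted p of 0.05. On day 3 the changes run from -2.08 (Fosl1) to 3.20 (Atf3), and on day 27 no point is filled.

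Of 12 dimer partners and related bZIP genes, 6 rose and 1 fell on day 3, with a median of 0.22, where 45.8% of all tested genes were called (24.9% higher and 20.8% lower) with a median of 0.02. Batf3, a Batf paralog needed for cross-presenting dendritic cells, averaged 43.8 ± 0.859 (SD, n = 2), against 4.01 ± 3.13 (SD, n = 4) in the controls, a log2 change of 3.35 (limma adjusted p = 0.0002). Batf2, an interferon-induced paralog, averaged 58.0 ± 7.15 (SD, n = 2), against 9.02 ± 4.20 in the controls (2.65, limma adjusted p = 0.0023). Maf (0.90) and Mafk (0.85), of the MAF branch of the bZIP proteins, also rose. Batf3 and Batf2 were the 2 that rose on day 6 (1.90 and 2.05, limma adjusted p = 0.034 and 0.047), where the list's median was -0.03 and 4.49% of all genes were called higher. Leaving out 1 tumour at a time, these calls were lost in 8 and 9 of 14 fits, and Batf2, at 17.5 and 80.6 in the 2 tumours, changed by 0.98 without day 6 tumour 2 and by 3.12 without tumour 1. On day 18 Atf7, an ATF2 relative, fell by 0.42 (limma adjusted p = 0.045) and 0 of 12 rose, where 2.5% of all genes were called lower and 5.42% higher. The Atf7 call was lost in 11 of 14 such fits, with changes of -0.63 to -0.20. On day 27 limma called 0 of 12, where it called 6.67% of all genes, with Jdp2 (0.45) and Maf (-0.50) nearest at adjusted p = 0.081 and 0.084. The dendritic cell markers, 5 of 5 listed, summed to 52.4 to 61.4 on day 3 and 44.3 to 88.4 on day 6, against 5.87 to 34.4 in the controls. Most of each sum was Itgax, at 39.2 to 50.5 on day 3 and 38.9 to 80.1 on day 6. No other marker of the list exceeded 5.11 on those days, although on day 3 each of the 5 was above its highest control. The part of these cells was not tested.

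Of 13 kinases and serum response factors upstream of AP-1, 2 rose and 3 fell on day 3, with a median of -0.10, beside 24.9% and 20.8% of all genes. Rps6ka1, an ERK-activated kinase, averaged 55.9 ± 7.24 (SD, n = 2), against 20.3 ± 5.75 (SD, n = 4) in the controls (1.45, limma adjusted p = 0.00062). Mapk14, the stress kinase p38 alpha, rose by 0.61. The ternary complex factor Elk3 (-0.57) and Mapk8, the JUN kinase JNK1 (-0.48), fell. On day 6 Mapk3, which encodes ERK1, fell by 0.45 (limma adjusted p = 0.045) and 0 of 13 rose, beside 1.43% of all genes lower and 4.49% higher. Leaving out 1 tumour at a time, the Mapk3 call was lost in 11 of 14 fits (adjusted p up to 0.54). On day 18, when 5.42% of all genes were called higher, Srf, the serum response factor that binds the Fos promoter, rose by 0.65 (limma adjusted p = 0.026), at 42.4 ± 2.87 (SD, n = 2) against 26.8 ± 3.62 (SD, n = 4) in the controls, a call lost in 3 of 14 such fits. On day 27 limma called 0 of 13, beside 6.67% of all genes.

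Of 23 genes known as AP-1 targets in other systems, 3 rose and 9 fell on day 3, with a median of -0.39, beside 24.9% and 20.8% of all genes. Hmga1, an architectural chromatin protein, averaged 341 ± 16.4 (SD, n = 2), against 2473 ± 487 (SD, n = 4) in the controls, and its change of -2.83 had the smallest p of the list (limma adjusted p = 1.2e-05). Ccnd1, cyclin D1, averaged 129 ± 0.866, against 478 ± 116 in the controls (-1.84, limma adjusted p = 5.9e-05). Gja1, connexin 43, fell by 2.24, and Tgfb1, transforming growth factor beta 1, rose by 1.32. On day 6 Hmga1 fell by 0.89 (limma adjusted p = 0.040) and the chemokine gene Ccl2 rose by 1.76 (limma adjusted p = 0.045), the only 2 called of 23, beside 5.92% of all genes. Leaving out 1 tumour at a time, each of these calls was lost in 10 of 14 fits, and Ccl2 changed by 0.86 without day 6 tumour 2 and by 2.67 without tumour 1. On day 18, 3 rose and 1 fell, beside 5.42% and 2.5% of all genes. Il6 averaged 6.00 ± 0.683 (SD, n = 2), against 0.890 ± 0.105 (SD, n = 4) in the controls (1.89, limma adjusted p = 0.00025). Plau, the urokinase gene, rose by 1.35 and Tgfb1 by 0.57, a call lost in 5 of 14 such fits, and the collagenase gene Mmp13 fell by 1.30. Plau and Mmp13 were the 2 called on day 27, when 6.67% of all genes were called. Plau averaged 144 ± 16.0 (SD, n = 4), against 48.2 ± 17.1 (SD, n = 4) in the controls (1.62, limma adjusted p = 0.0012), and Mmp13 fell by 1.11 (limma adjusted p = 0.012). Mmp13 also differed between the control groups, at 16.5 and 22.3 on day 3 and 7.78 and 8.54 on day 6. That log2 change was -1.14 (limma adjusted p = 0.87, not called). Its day 18 values (3.45 and 5.84) and day 27 values (4.22 to 6.18) were under every control, but time and treatment cannot be told apart there.

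Of 12 other immediate early genes, 5 rose and 0 fell on day 3, with a median of 0.52, beside 24.9% and 20.8% of all genes. Zfp36, which destabilises inflammatory transcripts, averaged 69.4 ± 29.1 (SD, n = 2), against 15.9 ± 2.24 (SD, n = 4) in the controls (2.01, limma adjusted p = 0.00043). Btg2, an antiproliferative gene, averaged 40.1 ± 18.3, against 6.33 ± 2.33 in the controls (2.47, limma adjusted p = 0.00089), and Gadd45b (1.31) and Klf6 (0.98) rose. On day 6 limma called 0 of 12, beside 5.92% of all genes, with Btg2 at 1.31 (adjusted p = 0.083). On day 18, when 5.42% of all genes were called higher and 2.5% lower, 3 rose and 0 fell, namely Egr2 (2.22, limma adjusted p = 0.0047), Zfp36 (1.74, limma adjusted p = 0.0055) and Btg2 (2.43, limma adjusted p = 0.0066). All 3 changes were smaller without day 18 tumour 1 (1.74, 1.29 and 2.07) than without tumour 2 (2.70, 2.19 and 2.79). Leaving out 1 tumour at a time, each of these calls was lost in 1 of 14 fits. On day 27 limma called 0 of 12, beside 6.67% of all genes, and the list's median was -0.31. In day 27 against PLX4032 day 3 tumours 6 fell and 0 rose, with a median of -1.18, beside 27.4% of all genes lower and 24.6% higher.

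**Figure D5:**
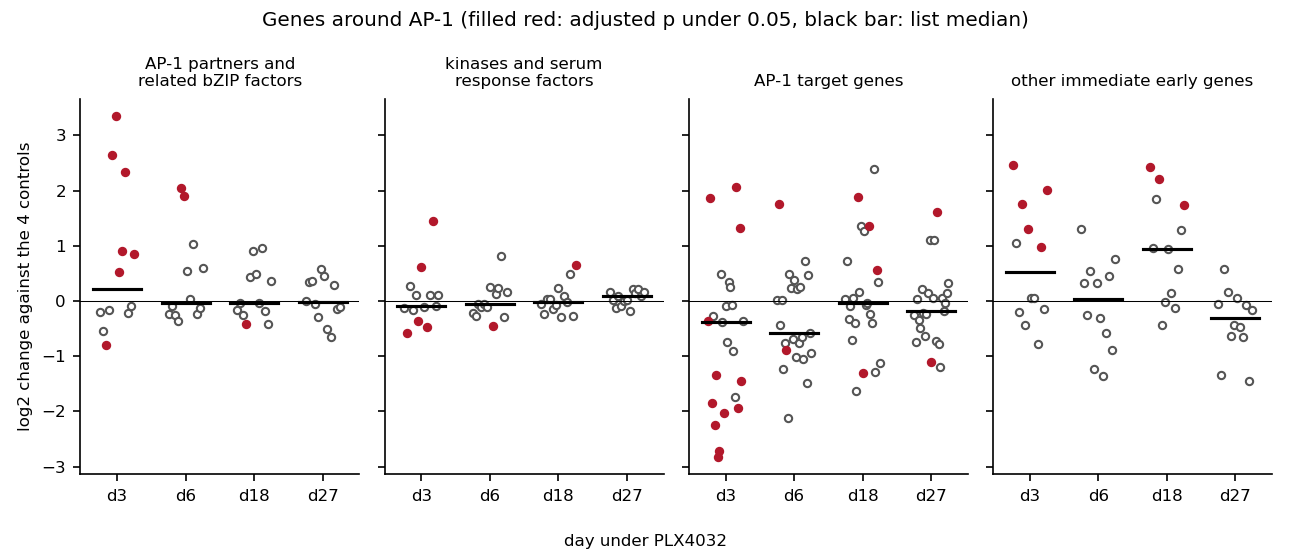
Log2 change from the controls of every gene of the 4 lists at each treated day, 1 point per gene, with filled red points past an adjusted p of 0.05 and a bar at the list's median. Other immediate early genes have medians of 0.52, 0.03, 0.95 and -0.31 on days 3, 6, 18 and 27.

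The genes whose log2 levels were most like each member over the 14 tumours were found by Pearson's r across all tested genes. The tumours share treatment groups, so these values describe the series and carry no test. For Fos they were Tmeff2 (r = 0.966), Btg2 (0.960) and Mettl7a1 (0.958), and for Fosl1 they were Ncapd3 (0.963), Tnfrsf12a (0.960) and Hmga1 (0.958). Batf was most like Ptpn18 (0.984), Rac2 (0.984) and Gmfg (0.982), and Atf3 most like Gramd3 (0.982), Tspyl3 (0.981) and Tmem219 (0.981). For Jun they were Ier5l (0.942), Sgtb (0.939) and Strn3 (0.931), and for Jund Prelid2 (0.914), Scand1 (0.913) and Foxo1 (0.884). The best partners were looser for Fosb (Cltc, 0.896, Ces2g, 0.875, and Cxcl1, 0.870), Fosl2 (Insig2, 0.902, Kdm6b, 0.811, and Prkab2, 0.791) and Junb (Nt5c and Larp6, 0.878 each, and Tnfrsf1a, 0.874).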

How the data were processed

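Bulk RNA was sequenced from 14 tumours. Libraries were made from Trizol RNA with the Illumina TruSeq kit, per the labels' protocols. For all tumours the authors provided a single deposited table of signal for each symbol, named TPM. Tools named without versions in the submitters' processing notes are kallisto and sleuth, with the build mm10. The rescaling of columns and the use of strand are points not given in the sources used here. With no counts in the table, depth per sample is unknown and no counting interval is given. A column's name gives its group, so tumour numbers are only names.

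Symbols were matched, ignoring case, to a list of official gene symbols (96.4% matched). Positions, exons, overlaps and gene types were taken from GENCODE M21 on GRCm38, the assembly of mm10. Genes reaching 1 in at least 2 tumours were taken as log2(signal + 1) and fitted as 6 group means with limma 3.58.1 in R 4.3.3 (variance trend, 8 residual degrees of freedom, 2-sided, Benjamini-Hochberg over 15841 genes). The test was planned for TPM and kept for this signal. Each treated day was set against the average of the control day 3 and control day 6 means. Named genes were all 9 members, the 4 of smallest p per list and comparison, and the 3 genes most like each member, leaving out predicted genes and pseudogenes. The members and lists were chosen with earlier results of these data known. What p-values measure here is the tumour-to-tumour spread, partly technical perhaps, since day 18 animals are not named. The fit was tested on simulated data. Alternatives were pseudocounts of 0.1 and 5, other filters, median-of-ratios and quantile scaling, only the compared groups, controls of 1 day, the day 27 tumours averaged in each of 3 pairings, and leaving out each tumour. Shares were compared by exact permutation in scipy 1.17.1.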

Additional observations from a re-analysis of the deposited data

Results flagged for a closer look

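For 6 of the 9 genes the change from the controls differed between days 27 and 3, by the limma test of that difference (day 27 tumours against PLX4032 day 3 tumours). In log2 units, the day 27 change minus the day 3 change was -3.313 for Fos, -2.936 for Atf3, -2.878 for Batf and -0.8174 for Jund. It was 1.867 for Fosl1 and 0.4686 for Jun. In the same comparison 52.0% of all tested genes were called. All 6 moved towards the control level. They had all been called against the controls on day 3 and none was on day 27, so this direction follows from those calls and adds no finding. Within the 4 day 27 tumours, Dixon's criterion set no single tumour apart in any of 10 measures, the 9 genes and the Fosl1 share. It looks for 1 tumour apart and cannot flag a split of 2 against 2, so it does not show that the 4 were alike. The Fosl1 share was 69.1% and 71.8% in tumours 1 and 3, and 58.0% and 59.0% in tumours 2 and 4. Which of these tumours share a mouse is not known.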

How the results depend on the processing

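At day 6, 0 of 9 members were called, against 3, when only the compared groups were fitted, when the day 27 tumours were averaged in any of the 3 pairings, or with only the controls of day 6. Leaving out 1 tumour gave 0 to 3 members called at day 6, 5 to 7 at day 3, 1 to 2 at day 18, 0 at day 27 and 5 to 8 for day 27 against day 3. Fos, Fosl1, Jund, Atf3 and Batf kept direction and call at day 3 in all 11 settings and 14 leave-outs. The Fosl1 share difference ran from -50.9 to -48.0 points at day 3, -16.0 to -11.0 at day 6, -42.0 to -24.1 at day 18 and -4.08 to 0.519 at day 27, turning positive without day 27 tumour 2 or tumour 4 (0.165).

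Signs turned only for values that had not passed the test. With only the controls of day 6, Junb changed by 0.057 at day 6. Under quantile normalisation Fosl2 and Jun changed by 0.021 and 0.011 between the control groups. Leaving out 1 tumour, Fosb ran from -0.57 to 3.31 at day 3, from -0.97 to 0.18 at day 6 and from -3.73 to 0.15 for day 27 against day 3. Junb ran from -0.28 to 0.26 at day 6, and Fosl2 and Jun from -0.16 to 0.13 and from -0.22 to 0.025 at day 18. At day 27 the ranges were -0.45 to 0.21 for Fos, -0.21 to 0.086 for Fosl2, -0.035 to 0.20 for Jun, -0.074 to 0.32 for Junb and -0.50 to 0.18 for Batf. Between the control groups they were -0.41 to 0.91 for Fos, -0.82 to 0.13 for Fosb, -0.54 to 0.27 for Fosl1, -0.31 to 0.28 for Fosl2, -0.28 to 0.19 for Jun, -0.53 to 0.26 for Junb, -0.40 to 0.97 for Batf, -0.035 to 0.23 for Mapk9, -1.57 to 0.12 for Egr1 and -1.53 to 0.10 for Nr4a1.

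Over all genes the day 6 count depended most on the tumours used: 937 genes, against 0 with only the compared groups or without control day 3 tumour 2, 1 without PLX4032 day 6 tumour 2, 26 without control day 6 tumour 2, 3 to 24 with the day 27 tumours left out or averaged or with only the controls of day 6, and 2145 without control day 6 tumour 1. The count was 4297 without PLX4032 day 3 tumour 2 at day 3, against 7249. It was 178 to 2231 at day 18, against 1254, 162 to 1144 at day 27, against 1056, and 0 to 31 between the control groups, against 0. The share of calls that were higher was 38.9% under quantile normalisation, against 54.4%, at day 3, 60.4% against 75.9% at day 6, 44.9% (56.4% under median-of-ratios rescaling) against 68.4% at day 18, and 61.3% against 47.3% for day 27 against day 3. Quantile normalisation moved the median change of all genes at day 3 to -0.15, against 0.02. The cause of these shifts was not tested. Depth is unknown. No paired analysis was possible because the columns carry no animal and the replicate numbers only name tumours.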
